A study of Mus musculus with 9 samples.

Results

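The genes of cholesterol and fatty acid synthesis were followed in mouse hippocampus by RNA sequencing. The set held 32 genes of 55536 in the count table, taken by symbol from a list of pathway genes. It comprised 19 enzymes of the sterol pathway, 1 enzyme of sterol removal (Cyp46a1), 5 genes that regulate sterol-responsive transcription or sterol transport (Insig1, Srebf1, Srebf2, Scap, Stard4) and 7 enzymes of fatty acid synthesis. All 32 passed the filter on low counts. The tissue came from hAPP-J20 mice (Tg) and from non-transgenic controls labelled nTg, whose genotype is given as WT. There were 3 Tg libraries at 24 weeks of age, called post-plaque by the submitters, 3 Tg libraries at 15 weeks, called pre-plaque, 2 nTg libraries at 24 weeks (replicates 1 and 3) and 1 nTg library at 15 weeks (replicate 2). The J20 line carries a human amyloid precursor protein gene with familial Alzheimer mutations, driven by a platelet-derived growth factor promoter that is active mainly in neurons. A name such as Tg_24w_3 stands for the third Tg replicate at 24 weeks.

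Cholesterol is built from acetyl-CoA through the mevalonate pathway, squalene and lanosterol. In the brain nearly all of it is made locally, because lipoproteins of the blood do not cross the blood-brain barrier, and oligodendrocytes and astrocytes are its main makers in the adult. When sterols run low, the escort protein SCAP carries SREBP precursors from the endoplasmic reticulum to the Golgi, where proteases release the active transcription factor. SREBP2, encoded by Srebf2, acts mainly on the sterol enzymes, and SREBP1, encoded by Srebf1, mainly on the fatty acid enzymes. INSIG1 holds SCAP back when sterols are plentiful.

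Total counts ranged from 12733452 (Tg_24w_3) to 21529266 (Tg_15w_3). The batch named in the labels equals the age, so batch and age cannot be told apart. The labels call the libraries biological replicates but do not tie each to a separate animal, so p-values reflect only the variation among these libraries, which may be partly technical. Tg_24w_3 stood apart: it lay at 84.1 on the first principal component, which held 36.7% of the variance, against -30.5 to 4.43 for the other 8 libraries. Mouse App did not separate the genotypes, with 776 to 1540 CPM (normalised read count per library size) in Tg and 1030 to 1500 CPM in nTg. Zbtb20, at the transgene insertion site, stood at 247 to 338 CPM in nTg and at 497 CPM in Tg_24w_3. In the other Tg libraries it stood at 138 to 204 CPM. Tg_24w_3 thus lay on the nTg side for this gene. The genotype label of Tg_24w_3 was not tested, and the labels were taken as given. Xist, transcribed from the inactive X of females, stood at 49.5 to 114 CPM in Tg_24w_3, Tg_15w_1, Tg_15w_3 and nTg_24w_3, where the Y-linked gene Ddx3y was at 0. In nTg_24w_1 both were counted, Xist at 7.38 CPM and Ddx3y at 39.2 CPM. Each group held libraries with Ddx3y and libraries without it, so the libraries of a group cannot all be repeats of a single animal. Tg_24w_3 and nTg_24w_1 are the libraries in doubt. For many members the difference is also given without Tg_24w_3 or without both. Counts of members with a positive difference or at an unadjusted p under 0.05 are given only with both included. General markers of neurons and of astrocytes were present in every library, with summed levels of 10800 to 12000 CPM and 4060 to 4570 CPM. They are not particular to the hippocampus.

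The start-site regions of the sterol genes are shown first because SREBP2 acts there together with the factors NF-Y and Sp1. RefSeq promoter windows from 250 bases before to 50 after the start (build GRCm38.p6) were matched for 26 of the 32 genes. No window was available for Fdft1, Fdps, Scd1, Scd2, Sqle and Stard4, so these genes were not searched. Searched on both strands, the NF-Y motif CCAAT was present in 22 of the 26 genes (84.6%), against 41.1% of all 27025 genes with a window and 42.3% of the 12149 of them that were tested. The Sp1 motif GGGCGG was present in 21 (80.8%), against 38.2% of all genes with a window and 65.6% of the tested ones. The sterol regulatory element TCACNCCAC was present in 1 member (3.85%), against 1.44% of all genes, and the direct repeat bound by liver X receptors in none, against 0.0148% of all genes. In Fasn a CCAAT and an ATTGG share 2 bases. A match is a description of the letters and not of binding. The stretches below run 5′ to 3′ on the gene's strand and lie before the start. Capitals mark CCAAT, its reverse complement ATTGG, and, in Hmgcs1, the sterol regulatory element. For Dhcr7 only the start with a match is shown. Its other listed starts held none of these motifs in the 250 bases before the start.
Hmgcs1 (chr13:119690104-119690320, + strand): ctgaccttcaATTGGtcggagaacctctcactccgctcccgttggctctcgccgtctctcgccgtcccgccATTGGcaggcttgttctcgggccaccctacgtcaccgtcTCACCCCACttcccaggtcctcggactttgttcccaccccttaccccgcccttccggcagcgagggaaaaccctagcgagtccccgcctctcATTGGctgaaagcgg
Mvd (chr8:122443435-122443492, - strand): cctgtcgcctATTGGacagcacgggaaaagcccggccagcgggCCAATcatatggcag
Idi1 (chr13:8885551-8885605, + strand): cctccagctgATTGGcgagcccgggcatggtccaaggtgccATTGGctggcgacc
Nsdhl (chrX:72918402-72918515, + strand): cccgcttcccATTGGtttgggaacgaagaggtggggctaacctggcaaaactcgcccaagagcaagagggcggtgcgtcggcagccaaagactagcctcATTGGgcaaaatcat
Dhcr7 (chr7:143830119-143830179, + strand, 1 of its 3 listed starts): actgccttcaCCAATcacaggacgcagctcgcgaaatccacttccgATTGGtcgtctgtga
Srebf2 (chr15:82147124-82147148, + strand): tcgcgcgccgATTGGctaatgcaag
Fasn (chr11:120824592-120824647, - strand): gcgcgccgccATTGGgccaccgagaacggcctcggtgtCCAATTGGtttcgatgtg

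In Hmgcs1, where all NF-Y motifs were read on the opposite strand, the sterol regulatory element began 137 bases before the start and lay between 2 of the NF-Y motifs, at positions -176 and -45. Idi1, which makes the isoprene unit dimethylallyl diphosphate, held both of its motifs within 45 bases of the start. Fasn, a fatty acid gene, also held NF-Y motifs, at -90, -62 and -59, so the motif was not confined to the sterol enzymes.

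Levels between genes were compared in the deposited TPM, which is per transcript length. Scd2, a desaturase that makes monounsaturated fatty acids and the most abundant member, stood at a mean of 480 TPM (346 to 597 over 9 libraries). Cyp46a1, the neuronal hydroxylase through which the brain removes cholesterol, followed at 93.4 TPM (62.9 to 124), and Hmgcs1, which makes HMG-CoA, at 93.1 TPM (65.1 to 126). The ranges of these 2 genes overlapped almost completely. Within the sterol pathway Fdft1 (squalene synthase) stood at 66.6 TPM and Lss, which closes the lanosterol ring, at 4.34 TPM. Srebf2 stood at 61.9 TPM and Srebf1 at 17 TPM, with ranges of 51.1 to 72.5 and 13.2 to 22.1 TPM that did not overlap. Scd2 lay above Scd1 (mean 74.8 TPM) in every library. Fdps, farnesyl diphosphate synthase, was lowest at 0.544 TPM and was counted with 6 to 35 reads per library.

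**Figure D1:**
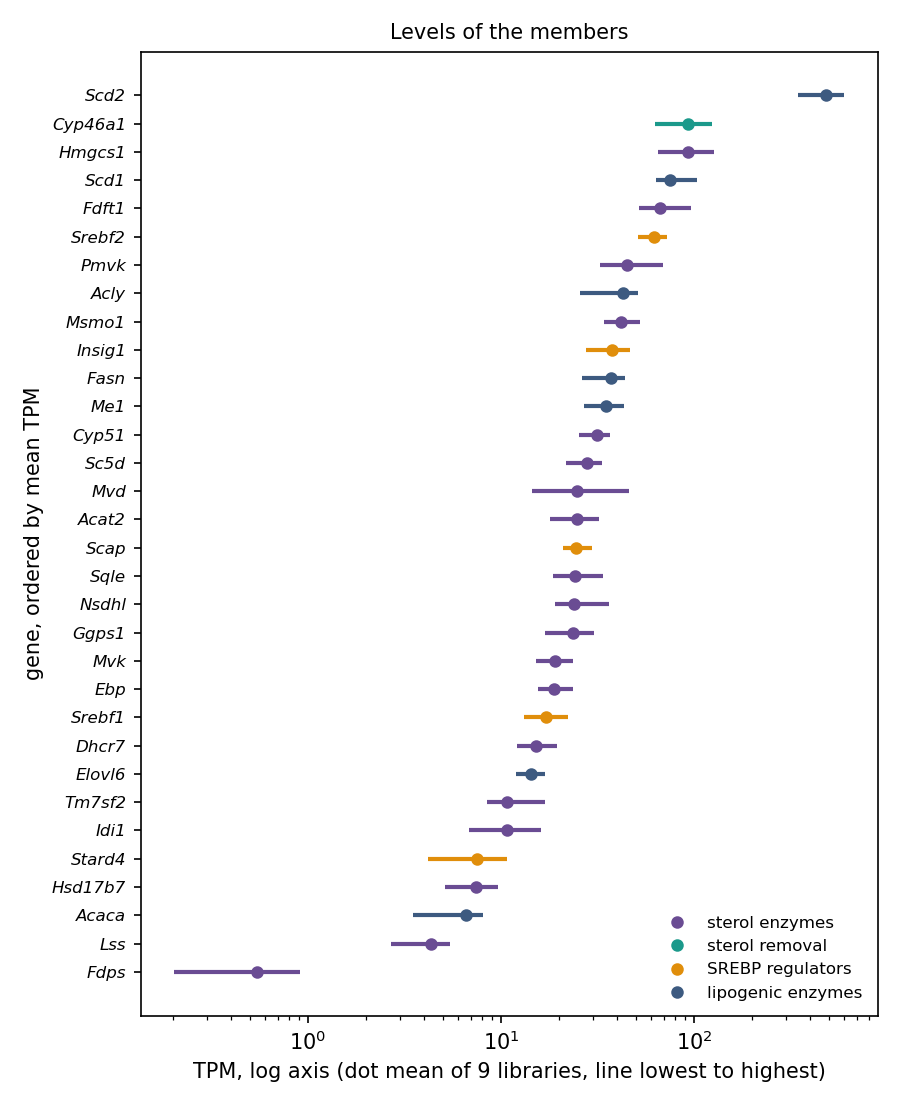
Levels of the 32 members in TPM on a log axis, with the mean of 9 libraries as a dot and the lowest to the highest library as a line, coloured by role. Scd2 lay at 480 TPM, most members between 4.34 and 93.4 TPM, and Fdps at 0.544 TPM.

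Some counts cannot be assigned to 1 gene with certainty, since the strand setting of the counting is not given in the sources used here. In the GENCODE M21 annotation (GRCm38), 63.3% of the exonic bases of Fdps (chromosome 3, 89093588 to 89101959) overlap Gm43738 on the same strand, and its low count is uncertain. Fdft1 (chromosome 14, 63145150 to 63179578) shares 20.9% of its exonic bases with Ctsb on the opposite strand. Tm7sf2 (chromosome 19, 6062821 to 6068373) shares 24.1% with Vps51 on the same strand. Of the 50-base windows of Acat2, 40.7% also occur in transcripts of other genes, mainly Acat3, and 49.1% of those of Acaca occur in Gm5182. Such shared windows made up 30.7% in Fdft1, 30.4% in Me1 and 28.6% in Idi1. Genes on the opposite strand overlap 16.9% of the exonic bases of Scap and 15.3% of those of Hmgcs1. Sqle, Mvd, Pmvk, Nsdhl, Dhcr7, Srebf2 and Stard4 had no such overlap.

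The 24-week comparison asked how the post-plaque Tg hippocampus differed from nTg, with the 3 nTg libraries of both ages as 1 group. Sterol enzymes were mostly higher in Tg at 24 weeks: 16 of the 19 had a positive log2 difference, with a median of 0.42, against 53.3% positive and a median of 0.03 over the 17457 genes tested. No member passed the threshold of 0.05 on the adjusted p in edgeR's quasi-likelihood test, where 0.132% of all genes did, so none is reported as changed. At an unadjusted p under 0.05, 14 of the 32 members were higher (7.68% of all genes) and 0 were lower (5.34% of all genes). Of these 14, 11 were sterol enzymes and the other 3 were Srebf2, Scap and Stard4. This count was taken with Tg_24w_3 and nTg_24w_1 included. With DESeq2 and with voom 1 member passed, Fdft1, and without the filter on low counts 5 did. These settings also passed more genes in all, 218, 238 and 559 against 23.

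**Figure D2:**
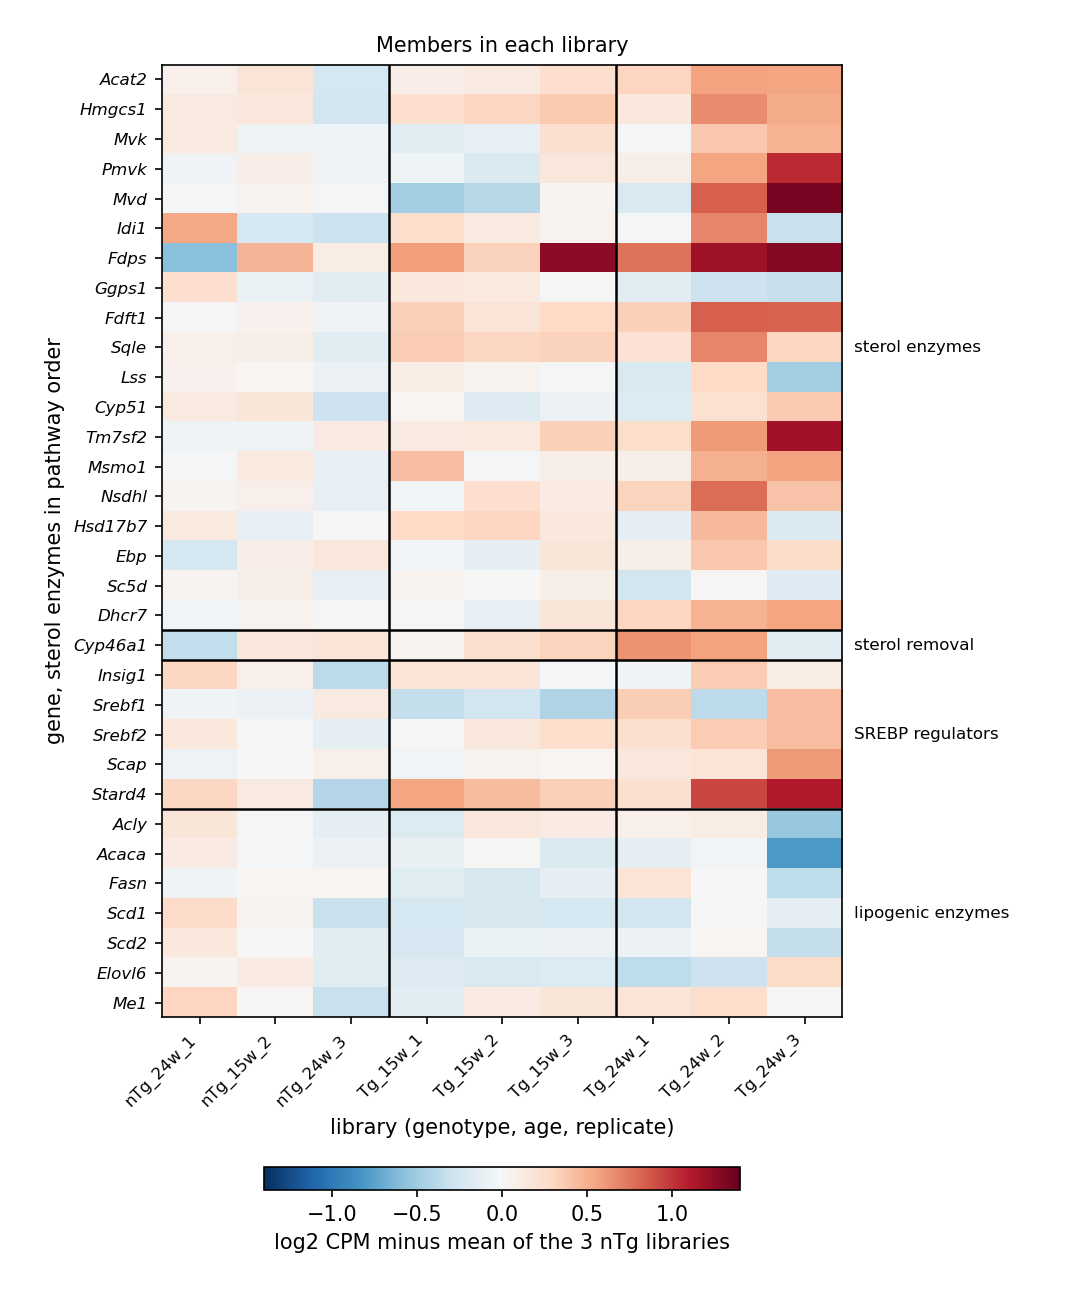
Log2 CPM of each member in each library minus the mean of the 3 nTg libraries, with genes in rows by role and pathway order and libraries in columns by group. The sterol rows are mostly red in Tg_24w_2 and Tg_24w_3, with medians of 0.55 and 0.49, and pale in Tg_24w_1, with a median of 0.09.

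Within the 3 Tg libraries at 24 weeks the pathway was uneven. Relative to the nTg mean, the median sterol enzyme stood at 0.55 in Tg_24w_2, 0.49 in Tg_24w_3 and 0.09 in Tg_24w_1 on the log2 scale. The Tg libraries at 15 weeks lay at 0.1 to 0.16 and the nTg libraries at -0.08 to 0.08, so Tg_24w_1 resembled those more than its own group. Tg_24w_2 was the highest of all 9 libraries for 9 sterol enzymes. Tg_24w_3 was highest for 8 and lowest for 4, and Tg_24w_1 was highest for 0. Without Tg_24w_3 the median over the sterol enzymes was 0.32, and without Tg_24w_3 and nTg_24w_1 together it was 0.35. Within the 24-week libraries alone it was 0.47.

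At the head of the pathway, Hmgcs1 stood at 183, 261 and 236 CPM in the 24-week Tg libraries (replicates 1 to 3), 194, 204 and 213 CPM in the 15-week Tg libraries, and 179, 182 and 137 CPM in nTg. All 6 Tg libraries lay above all nTg libraries, although Tg_24w_1, at 183 CPM, was close to the highest nTg library, at 182 CPM. The log2 difference was 0.46 ± 0.16 (SE) at 24 weeks (edgeR adjusted p = 0.31) and 0.28 ± 0.16 at 15 weeks (adjusted p = 1). Acat2, which forms acetoacetyl-CoA, had group means of 25.1 ± 3.77 CPM in nTg (SD, n = 3), 27.7 ± 1.5 CPM in the 15-week Tg libraries and 34.7 ± 3.47 CPM in the 24-week Tg libraries (n = 3 each). Its 24-week libraries lay above those of both other groups.

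The next steps phosphorylate and decarboxylate mevalonate. Mvk, mevalonate kinase, had means of 22 ± 1.73 CPM in nTg and 27 ± 4.92 CPM in the 24-week Tg libraries. Pmvk, phosphomevalonate kinase, stood at 32.6, 45.1 and 63.5 CPM in the 24-week Tg libraries, 29.4, 26.7 and 34.3 CPM in the 15-week Tg libraries, and 29.7, 32.8 and 29.7 CPM in nTg. Mvd, which decarboxylates mevalonate diphosphate, stood at 15.7, 32.7 and 46 CPM in the 24-week Tg libraries, 13.1, 13.9 and 18.8 CPM in the 15-week Tg libraries, and 18.1, 19 and 17.9 CPM in nTg. For both genes replicate 3 was the highest of all libraries and replicate 1 lay within the range of the other groups or, for Mvd, below nTg. The 24-week differences from nTg were 0.63 ± 0.21 for Pmvk and 0.79 ± 0.30 for Mvd, and without Tg_24w_3 they were 0.32 and 0.39. Without the filter on low counts both passed in edgeR, with adjusted p = 0.037 for Pmvk and 0.0051 for Mvd, over alternatives that ran up to 0.626 and 0.634.

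Idi1 ranged from 12.8 to 25.6 CPM in the 24-week Tg libraries and from 12.8 to 23.2 CPM in nTg, a difference of 0.14 ± 0.26. Idi1 turned on single libraries: its difference was -0.22 without Tg_24w_2, 0.31 without Tg_24w_3, and 0.62 without Tg_24w_3 and nTg_24w_1. Fdps had a difference of 1.13 ± 0.44 at low means of 0.644 CPM in nTg and 1.43 CPM in the 24-week Tg libraries. Its 24-week libraries lay above nTg, and the difference was 0.71 without Tg_24w_3 and nTg_24w_1 and 0.35 on the log2 scale of TPM plus 1. Ggps1, which makes geranylgeranyl diphosphate on the branch away from sterols, went the other way. Its mean was 44.6 ± 2.7 CPM in the 24-week Tg libraries against 56.6 ± 3.87 CPM in the 15-week Tg libraries and 53.6 ± 7.83 CPM in nTg, and its 24-week libraries lay below all libraries of both groups.

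Fdft1, which commits farnesyl diphosphate to sterols, had the smallest p of the members at 24 weeks. It stood at 130, 185 and 184 CPM in the 24-week Tg libraries, 131, 117 and 126 CPM in the 15-week Tg libraries, and 103, 108 and 100 CPM in nTg, from 1655 to 3496 reads per library. Every Tg library lay above every nTg library, and Tg_24w_1 lay among the 15-week libraries. The difference at 24 weeks was 0.69 ± 0.15 (edgeR adjusted p = 0.139), and it passed with DESeq2 (adjusted p = 0.00586), with voom (adjusted p = 0.0449) and in edgeR without the filter (adjusted p = 0.00699), over alternatives that ran up to 0.476. Within the 24-week libraries it was 0.72, and without Tg_24w_3 it was 0.59. Among the 4 libraries with Xist and without Ddx3y the Tg values were 184, 131 and 126 CPM and the nTg value 100 CPM, and among the other 5 the Tg values were 130, 185 and 117 CPM and the nTg values 103 and 108 CPM.

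Sqle, squalene epoxidase and a rate-limiting step, stood at 60.5, 84.4 and 64.7 CPM in the 24-week Tg libraries, 66.9, 63.9 and 65.4 CPM in the 15-week Tg libraries, and 55, 55.4 and 47.3 CPM in nTg. The groups did not overlap at either age, and Tg_24w_2 was the highest library. The differences were 0.42 ± 0.14 at 24 weeks and 0.31 ± 0.14 at 15 weeks, and without Tg_24w_2 the first was 0.24. Lss and Cyp51, which form lanosterol and remove its first methyl group, showed no such separation. The difference of Lss at 24 weeks was -0.09 (interval of 2 SE from -0.44 to 0.25) and that of Cyp51 0.15 (-0.2 to 0.49).

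In the last part of the pathway the values were again uneven between libraries. Tm7sf2, a sterol C14 reductase, stood at 21, 26.7 and 39.9 CPM in the 24-week Tg libraries, 19.2, 19.3 and 22.3 CPM in the 15-week Tg libraries, and 16.8, 16.9 and 19.1 CPM in nTg. All Tg libraries lay above nTg, by a narrow margin at 15 weeks, and replicate 3 stood highest. Its 24-week difference was 0.74 ± 0.21 (edgeR adjusted p = 0.26) and 0.42 without Tg_24w_3. Nsdhl, which takes part in removing the methyl groups at C4, stood at 33.7, 46.6 and 35.8 CPM in the 24-week Tg libraries, 26.5, 31.8 and 29.4 CPM in the 15-week Tg libraries, and 27.7, 28.6 and 25.1 CPM in nTg. Its 24-week libraries lay above all 6 others, with a difference from nTg of 0.52 ± 0.15 (edgeR adjusted p = 0.249), and 0.34 without Tg_24w_2. Msmo1, the C4 methyl oxidase, had means of 104 ± 9.53 CPM in nTg, 117 ± 19.6 CPM in the 15-week Tg libraries and 136 ± 23.2 CPM in the 24-week Tg libraries, with overlapping libraries.

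Dhcr7, the reductase of the final step to cholesterol, was the most even of the higher enzymes at 24 weeks. It stood at 44.9, 51.1 and 53.2 CPM in the 24-week Tg libraries, 36.8, 33.5 and 40.9 CPM in the 15-week Tg libraries, and 35.4, 37.7 and 36.1 CPM in nTg. The 24-week libraries lay above all 6 others, which overlapped each other. The difference from nTg was 0.46 ± 0.13 at 24 weeks (edgeR adjusted p = 0.248) and 0.02 ± 0.13 at 15 weeks, with an interval of 2 SE from -0.24 to 0.28. Without Tg_24w_3 the 24-week difference was 0.38. Hsd17b7, Ebp and Sc5d, which act between Nsdhl and Dhcr7, differed from nTg at 24 weeks by 0.08 ± 0.18, 0.24 ± 0.16 and -0.13 ± 0.12.

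**Figure D3:**
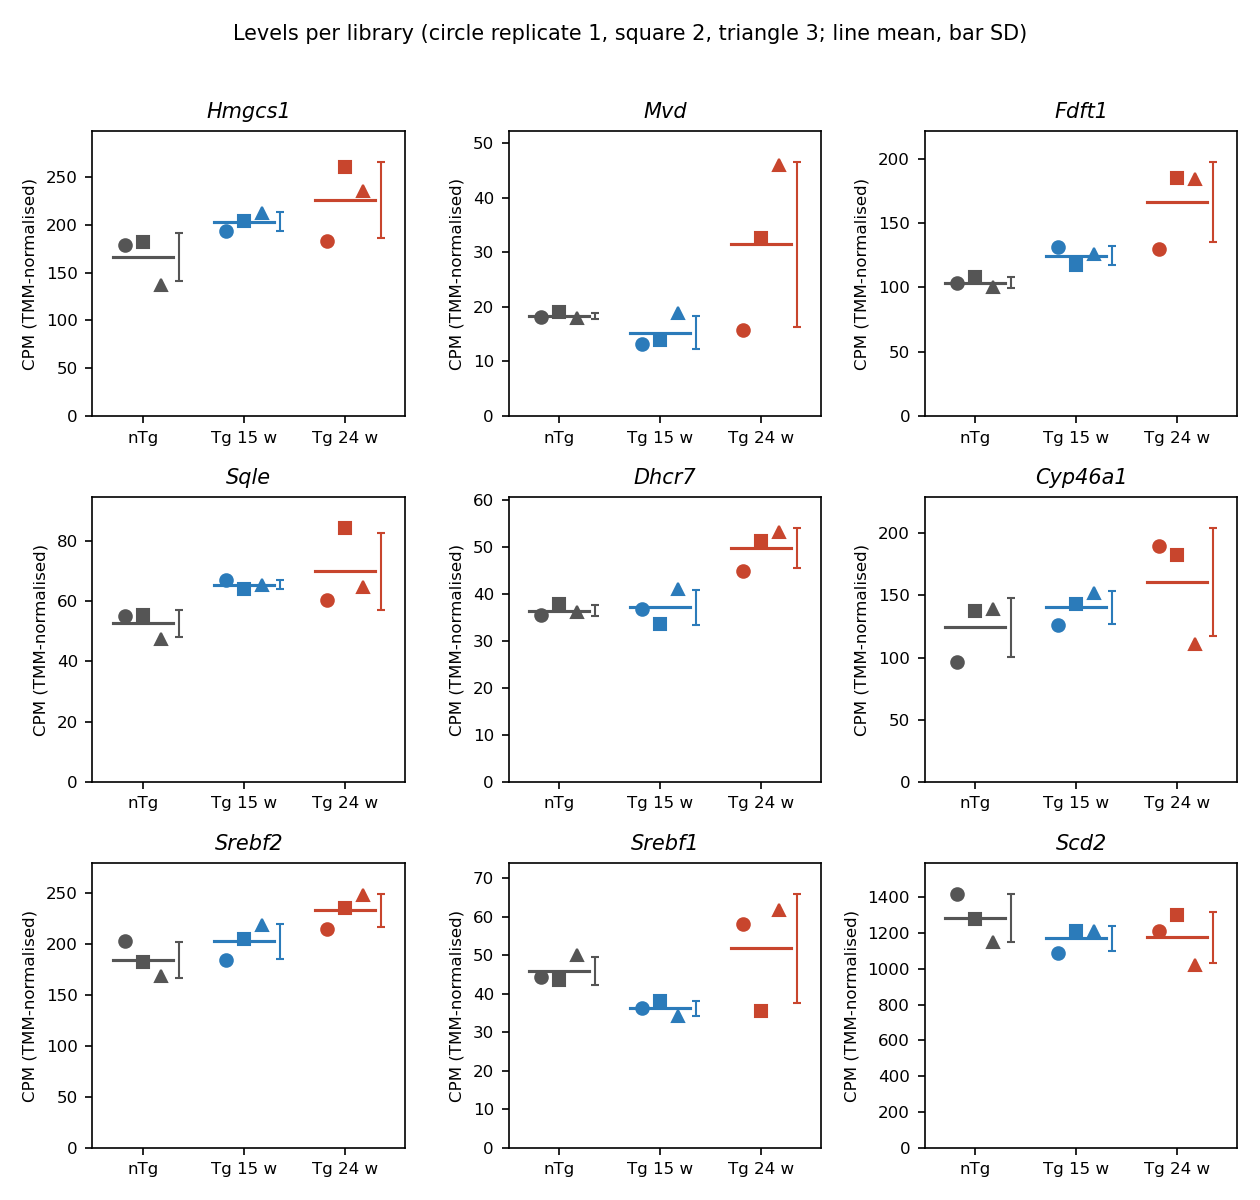
TMM-normalised CPM of 9 members in every library by group, with the mean as a line and the SD as a bar (n = 3 per group), and a symbol for each replicate number. Dhcr7 in Tg at 24 weeks lies between 44.9 and 53.2 CPM, above the other groups, while Mvd spreads from 15.7 to 46 CPM.

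Cyp46a1, which turns cholesterol into 24-hydroxycholesterol for export from neurons, stood at 190, 182 and 111 CPM in the 24-week Tg libraries, 126, 143 and 152 CPM in the 15-week Tg libraries, and 96.5, 137 and 139 CPM in nTg. Tg_24w_3 and nTg_24w_1 were the low libraries of their groups, and the groups overlapped. The 24-week difference was 0.37 ± 0.20 (edgeR adjusted p = 0.435), and leaving out 1 Tg library moved it between 0.23 (without Tg_24w_1) and 0.56 (without Tg_24w_3).

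All 5 regulatory members had a positive difference from nTg at 24 weeks, with a median of 0.34. Srebf2 stood at 215, 235 and 248 CPM in the 24-week Tg libraries, 184, 205 and 218 CPM in the 15-week Tg libraries, and 203, 182 and 168 CPM in nTg. The 24-week libraries lay above nTg, and replicate 1 lay within the range at 15 weeks. Its difference from nTg was 0.35 ± 0.13 (edgeR adjusted p = 0.335), and 0.27 without Tg_24w_3. Scap stood at 87.3, 89.5 and 118 CPM in the 24-week Tg libraries, 76.2, 80.9 and 79.5 CPM in the 15-week Tg libraries, and 74.3, 78.5 and 82.3 CPM in nTg. The 24-week libraries lay above all others, but the difference of 0.34 ± 0.15 was 0.16 without Tg_24w_3.

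Stard4, a carrier of cholesterol between membranes, stood at 16.6, 27.3 and 30.9 CPM in the 24-week Tg libraries, 20.9, 19.4 and 18 CPM in the 15-week Tg libraries, and 17.4, 15.5 and 10.7 CPM in nTg. The 15-week libraries lay above nTg, while Tg_24w_1 lay within its range. The difference was 0.79 ± 0.24 at 24 weeks (edgeR adjusted p = 0.262) and 0.41 ± 0.23 at 15 weeks. Without Tg_24w_3 the 24-week difference was 0.58. Insig1, itself a known SREBP target, stood at 48.3, 64.8 and 54.1 CPM in the 24-week Tg libraries, 57.7, 57.4 and 49.6 CPM in the 15-week Tg libraries, and 61.9, 53 and 39.2 CPM in nTg. The groups overlapped, with a 24-week difference of 0.13 ± 0.17 that was -0.03 without nTg_24w_3 and -0.02 without Tg_24w_2.

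Srebf1 went apart from Srebf2. It stood at 58.1, 35.5 and 61.7 CPM in the 24-week Tg libraries, 36.4, 38.1 and 34.2 CPM in the 15-week Tg libraries, and 44.3, 43.5 and 50.1 CPM in nTg. All 15-week Tg libraries lay below nTg, and at 24 weeks replicate 2 lay with the 15-week libraries while replicates 1 and 3 were the highest of all 9. The difference from nTg was -0.36 ± 0.19 at 15 weeks (edgeR adjusted p = 1) and 0.18 ± 0.19 at 24 weeks, and the latter was -0.03 without Tg_24w_3 and nTg_24w_1. Tg_24w_2, the library with the highest sterol enzymes, thus held the lowest Srebf1 of its group.

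The fatty acid enzymes did not follow the sterol enzymes. At 24 weeks 1 of 7, Me1, which supplies NADPH as malic enzyme, had a positive difference (0.14 ± 0.16), and the median was -0.09. No fatty acid enzyme had an unadjusted p under 0.05 in any comparison. Scd2 stood at 1210, 1300 and 1020 CPM in the 24-week Tg libraries, 1090, 1210 and 1210 CPM in the 15-week Tg libraries, and 1420, 1280 and 1150 CPM in nTg. Scd1, the second desaturase, stood at 152, 183 and 167 CPM in the 24-week Tg libraries, 154, 157 and 154 CPM in the 15-week Tg libraries, and 220, 188 and 148 CPM in nTg. For both genes nTg_24w_1 was the highest library and the groups overlapped at both ages. The 24-week differences were -0.12 for Scd2 (interval of 2 SE from -0.4 to 0.16) and -0.13 for Scd1 (-0.43 to 0.16).

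For other fatty acid enzymes Tg_24w_3 stood apart from its group. Fasn, fatty acid synthase, had means of 197 ± 5.91 CPM in nTg, 174 ± 5.43 CPM in the 15-week Tg libraries and 191 ± 35.4 CPM in the 24-week Tg libraries, so the 24-week spread covered both other groups. Acaca, acetyl-CoA carboxylase, stood at 51.5 and 54.4 CPM in Tg_24w_1 and Tg_24w_2 and at 32 CPM in Tg_24w_3. Acly, which cleaves citrate to acetyl-CoA, showed the same split with 110, 113 and 72.8 CPM. Elovl6, a fatty acid elongase, showed the opposite one with 35.6, 37.1 and 54.9 CPM. Over the 7 enzymes nTg_24w_1 was the highest library for 5 and Tg_24w_3 the lowest for 4. Without these 2 libraries the median difference at 24 weeks was 0.01.

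**Figure D4:**
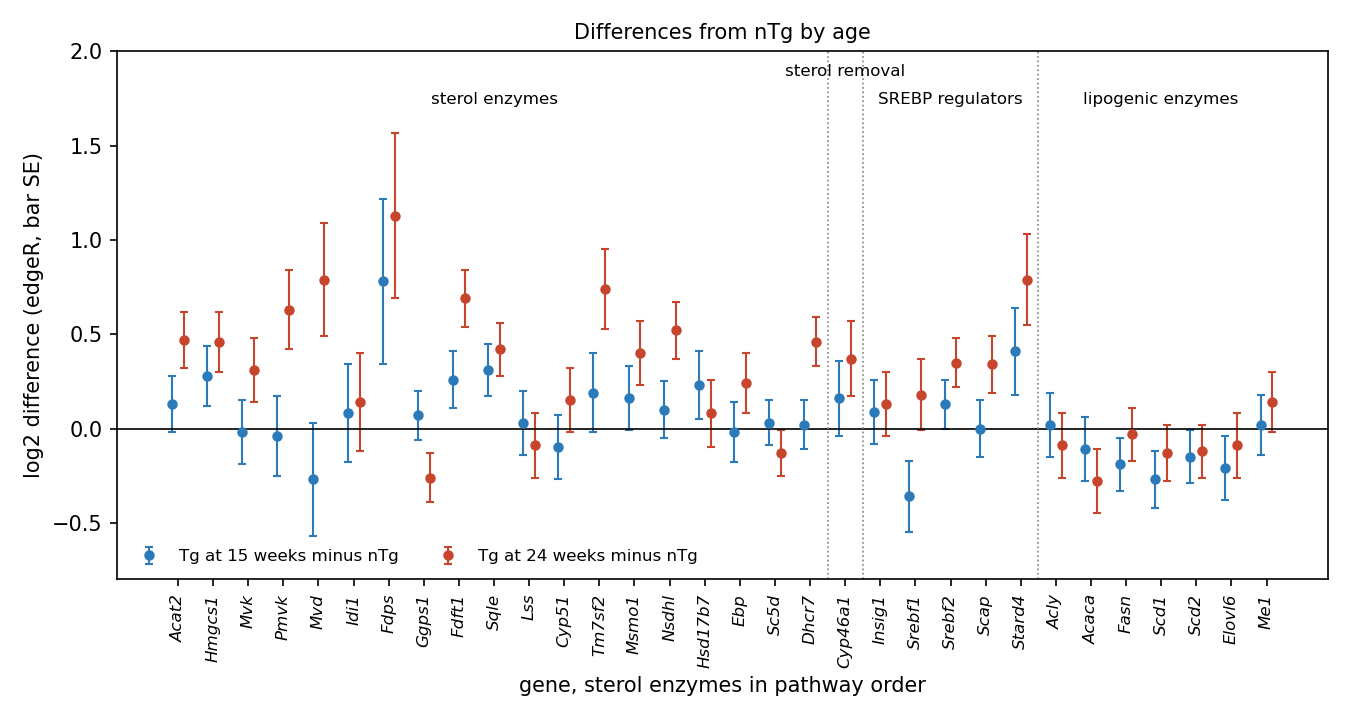
Log2 difference from the 3 nTg libraries with its SE (edgeR) for each member, at 15 and at 24 weeks, in pathway order. The 24-week points of the sterol enzymes have a median of 0.42 and the 15-week points a median of 0.08, while those of the fatty acid enzymes have medians of -0.09 and -0.15.

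Whether every library of a group lay above or below every library of the other was counted as a second description. At 24 weeks 10 members lay wholly above nTg (9.72% of all genes did) and 1, Ggps1, wholly below (7.03% of all genes). The 10 were Acat2, Hmgcs1, Fdps, Fdft1, Sqle, Tm7sf2, Nsdhl, Dhcr7, Srebf2 and Scap. Without Tg_24w_3 there were 11 above and 2 below, with 16.5% and 10.7% of all genes, and without nTg_24w_1 as well 16 above and 2 below, with 27.5% and 19.5%.

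At 15 weeks, the pre-plaque stage, the sterol enzymes lay close to nTg, with a median difference of 0.08 and 14 of 19 positive, against a median of 0 and 50% positive over all genes. No member passed the adjusted p, as 0% of all genes did in edgeR. At an unadjusted p under 0.05, 1 member, Sqle, was higher (1.32% of all genes) and 0 were lower (1.97% of all genes). With DESeq2 and voom 0 members passed the adjusted p as well. Wholly above nTg lay 6 members (5.42% of all genes), namely Hmgcs1, Fdft1, Sqle, Tm7sf2, Hsd17b7 and Stard4. Wholly below lay 3 (4.97% of all genes), namely Srebf1, Fasn and Elovl6. Against the single nTg library of the same age the differences of Sqle, Hmgcs1, Srebf1 and Scd1 were 0.23, 0.15, -0.28 and -0.29.

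Over both ages, with age as a term, 16 of the 19 sterol enzymes and 22 of the 32 members had a positive difference, with medians of 0.3 and 0.17, against 54% positive and a median of 0.02 over all genes. No member passed the adjusted p in edgeR, with DESeq2 or with voom, as 0% of all genes did in edgeR. At an unadjusted p under 0.05, 7 members were higher (2.55% of all genes) and 0 lower (2.84% of all genes). The 4 of smallest p were Fdft1 with 0.51 ± 0.15 (edgeR adjusted p = 0.773), Sqle with 0.37 ± 0.13, Stard4 with 0.63 ± 0.22 and Tm7sf2 with 0.53 ± 0.20 (adjusted p = 0.857 each). Within the 24-week libraries alone these differences were 0.69, 0.43, 0.81 and 0.68. Without Tg_24w_3 and nTg_24w_1 they were 0.39, 0.39, 0.62 and 0.26. Without nTg_24w_3 that of Stard4 was 0.42. Wholly above the 3 nTg libraries lay 4 members in all 6 Tg libraries, namely Hmgcs1, Fdft1, Sqle and Tm7sf2, with 1.13% of all genes, and wholly below lay 0, with 1.11% of all genes.

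Between the ages within Tg, the difference of Tg at 24 weeks from Tg at 15 weeks was positive for 26 members, with a median of 0.22 against 0.02 over all genes. No member passed the adjusted p, where 0.0344% of all genes did. At an unadjusted p under 0.05, 9 members were higher (9.58% of all genes) and 1, Ggps1, was lower (5.57% of all genes). The 4 of smallest p were Mvd with 1.06 ± 0.30 (edgeR adjusted p = 0.215), Dhcr7 with 0.44 ± 0.13 (adjusted p = 0.216), Pmvk with 0.67 ± 0.21 (adjusted p = 0.228) and Fdft1 with 0.44 ± 0.15 (adjusted p = 0.235). Mvd passed with DESeq2 (adjusted p = 0.0391), without the filter on low counts (adjusted p = 1.92e-05) and without Tg_24w_1 (difference 1.37, adjusted p = 0.0477), over alternatives that ran up to 0.613. The first 2 of these settings passed 289 and 701 genes in all, against 6. Without Tg_24w_3 the difference of Mvd was 0.65 and that of Pmvk 0.36. Wholly above the 15-week libraries lay 4 members (9.6% of all genes), namely Acat2, Nsdhl, Dhcr7 and Scap, and wholly below lay Ggps1 (11.2% of all genes).

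Whether the Tg difference itself changed with age was tested as an interaction, which rests on 1 nTg library at 15 weeks. No member passed the adjusted p, as 0% of all genes did in edgeR, and Acat2 had the smallest p with 0.61 ± 0.27 (edgeR adjusted p = 1). At an unadjusted p under 0.05, 1 member was higher (0.93% of all genes) and 0 were lower (1.15% of all genes), and with DESeq2 and voom 0 passed the adjusted p. The interaction was 1.14 ± 0.54 for Mvd, 0.80 ± 0.39 for Pmvk and 0.52 ± 0.26 for Dhcr7. Without Tg_24w_3 these were 0.74, 0.50 and 0.44, and without nTg_24w_1 as well 0.71, 0.47 and 0.39. The comparisons at 15 and 24 weeks share their nTg libraries, so the differences of a gene at both ages are not independent.

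Other genes around the pathway were described by counts at 24 weeks, from lists drawn up apart from the 32. None of their genes passed the adjusted p. Of 21 genes of fatty acid activation, elongation and desaturation 10 had a positive difference, with a median of -0.04. The citrate carrier Slc25a1, which brings acetyl units to the cytosol, differed by 0.56 ± 0.14 (edgeR adjusted p = 0.221), Aacs, which activates acetoacetate, by 0.41 ± 0.15 and the elongase Elovl2 by -0.39 ± 0.16. Of 13 genes of SREBP processing and liver X receptors 5 were positive, with a median of -0.05. Rxrb, a partner receptor, differed by 0.62 ± 0.21 and Erlin2 by -0.28 ± 0.13. Of 14 tested genes of efflux, storage and lysosomal export 6 were positive, with a median of -0.04. There the cholesterol exporter Abca1 differed by -0.51 ± 0.20 and Npc1, which moves cholesterol out of lysosomes, by -0.48 ± 0.25. Npc2, of the same list, went the other way with 0.19 ± 0.12. The list summed to 674, 612 and 460 CPM in Tg_24w_1, Tg_24w_2 and Tg_24w_3, against 596 to 630 CPM in nTg, so Tg_24w_3 was the low library. The differences of the genes named from these lists include Tg_24w_3. Of 12 genes of the isoprenoid branch 6 were positive, with a median of 0.02.

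Markers of the cell types of the tissue were read in the same libraries, since in bulk tissue fewer cells of a type and less RNA per cell cannot be told apart. None of the markers below was at 0 in any library. The 15 oligodendrocyte and myelin markers had mostly negative differences: 0 of 15 had a positive difference at 15 weeks (median -0.40) and 2 of 15 at 24 weeks (median -0.35), none past the adjusted p. Their summed level was 6920 to 8760 CPM in nTg, 5510 to 5770 CPM in the 15-week Tg libraries and, for replicates 1 to 3, 7100, 4820 and 5890 CPM in the 24-week Tg libraries. Tg_24w_2 thus held the highest median of the sterol enzymes and the lowest myelin sum, and Tg_24w_1 the lowest median and the highest sum of its group. The 12 astrocyte markers summed to 4290 to 4560 CPM in nTg and 4060 to 4420 CPM in the 24-week Tg libraries, and 6 of 12 were positive. Gfap differed by 0.90 ± 0.21, S100b by 0.61 ± 0.23 and Slc1a2, in the other direction, by -0.36 ± 0.14 (edgeR adjusted p = 0.169, 0.335 and 0.337). Of the 12 neuron markers 7 were positive at 24 weeks, with a median of 0.11 and summed levels of 10900 to 12000 CPM against 10800 to 11600 CPM in nTg. Among them Tubb3, a neuronal tubulin, differed by 0.87 ± 0.24, Rbfox3 (NeuN) by 0.63 ± 0.26 and Stmn2, a growth-associated protein, by 0.35 ± 0.13 (edgeR adjusted p = 0.248, 0.349 and 0.323). The 10 choroid plexus markers summed to 5120 to 6890 CPM in nTg, 1870 to 3880 CPM in the 15-week Tg libraries and 1910 to 6720 CPM in the 24-week Tg libraries. Blood markers reached 759 CPM in Tg_24w_3 against 168 to 308 CPM in nTg, and the 8 meningeal markers 209 to 272 CPM in the 24-week Tg libraries against 130 to 166 CPM in nTg. The 10 endothelial and mural markers summed to 151 to 231 CPM in the 24-week Tg libraries against 145 to 204 CPM in nTg. The 10 microglia markers summed to 498 to 598 CPM in the 24-week Tg libraries against 404 to 493 CPM in nTg. The part of these cell types in the differences of the sterol enzymes was not tested.

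**Figure D5:**
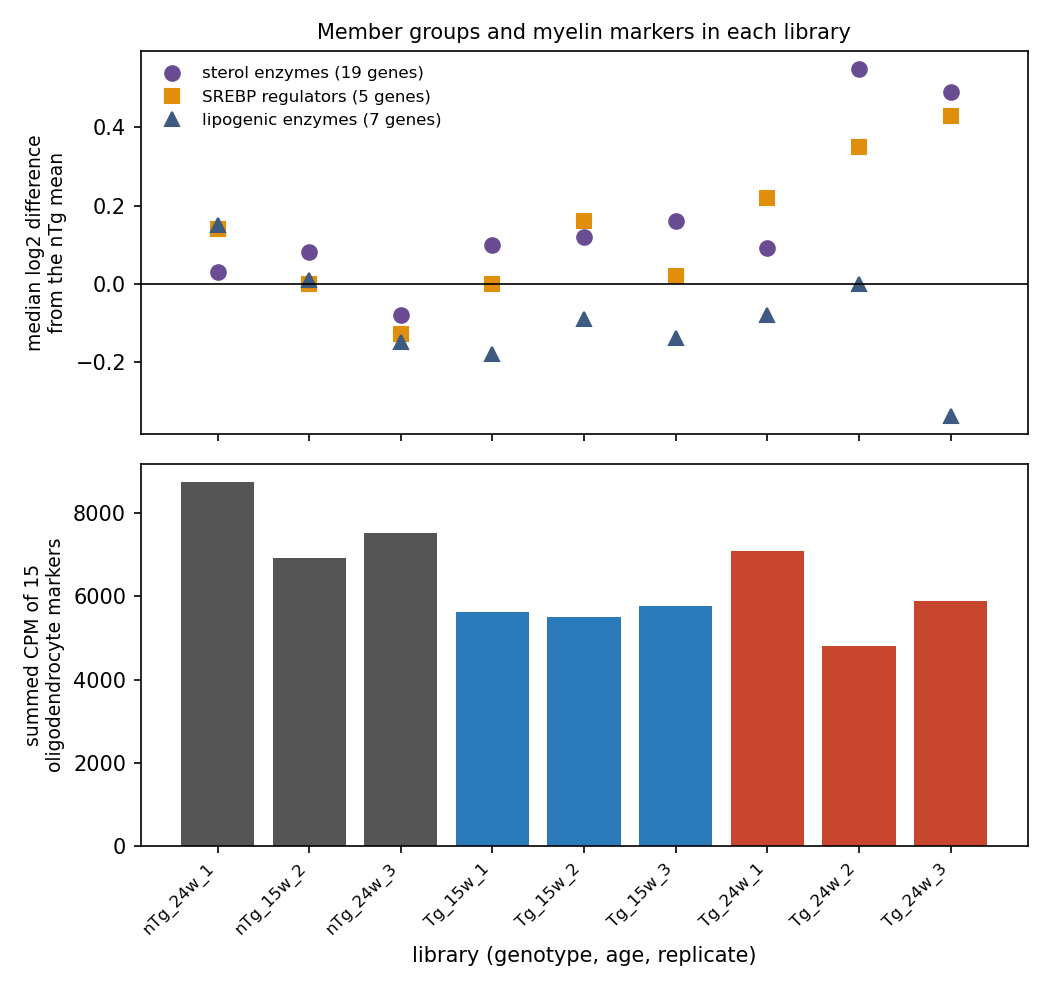
Top, the median log2 difference from the nTg mean over the 19 sterol enzymes, 5 regulators and 7 fatty acid enzymes in each library; bottom, the summed CPM of 15 oligodendrocyte markers. Tg_24w_2 has the highest sterol median, 0.55, and the lowest marker sum, 4820 CPM.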

How the data were processed

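RNA of mouse hippocampus was sequenced in 9 libraries. Per the labels' protocols, the RareRNA kit of Genepure was used for RNA and the KAPA mRNA HyperPrep kit of Roche for libraries. Tools listed in the submitters' processing notes are HISAT2 2.1.0, featureCounts 2.0.0, Trimmomatic 0.38, DESeq2 1.26.0 and CASAVA, with the build GRCm38. Annotation release and strand setting: not given in the sources used here. The authors deposited raw counts per gene, which were tested unaltered, and TPM per gene, which served for levels between genes and for alternatives. FPKM sheets were not used, and 0 columns of other samples were present.

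The main test was edgeR 4.0.16 under R 4.3.3 (quasi-likelihood F test, TMM factors, filterByExpr). P-values are two-sided and were adjusted by Benjamini-Hochberg over all 17457 genes tested (19574 for the interaction), with a threshold of 0.05. Genotype was fitted with age over 9 libraries, the age comparisons in 3 groups (nTg of both ages, Tg at 15 and Tg at 24 weeks) and the interaction in 4 groups. Standard errors are the log2 difference divided by the root of the F statistic. CPM are TMM-normalised, and relative log2 values use a prior count of 2. Alternatives were DESeq2 1.42.0, limma 3.58.1 (voom with quality weights, and log2 of TPM plus 0.1 or 1), RLE factors, no filter (genes with at least 1 count), a replicate term, each library left out and both libraries in doubt left out. The scripts were tested on simulated data. Libraries of a group differed beyond sampling noise (chi-square per degree of freedom from 11.2 to 66.6), so each counted as 1 replicate. Genes without a symbol numbered 2339. Promoter windows came from RefSeq and gene coordinates from GENCODE M21.

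The members and lists were chosen with earlier results of these data known. Values in every library are given for the 4 members of smallest p in each of the first 4 comparisons (genotype, 15 weeks, 24 weeks, and between ages) and for Srebf2, Srebf1, Scap, Insig1, Cyp46a1, Scd1 and Scd2. The other members are given by group means or differences, and of other lists up to 3 genes of smallest p at 24 weeks are named. Library values of Acly, Acaca, Elovl6 and Idi1 lie outside this rule and were added after they were seen.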

Additional observations from a re-analysis of the deposited data

Results flagged for a closer look

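Among the 6 Tg libraries, 1 library lay far from the others for 4 of the 32 members. The measure was the gap to the nearest library divided by the whole range, judged by Dixon's limit for 6 samples. Chance passes this limit for about 1 in 20 groups drawn from a single normal distribution. These 6 libraries span both ages, so that rate need not hold here. The share of all genes past the limit was not counted, so the 4 are not read as a result about the members. Sqle had a ratio of 0.7 through Tg_24w_2, at 84.4 CPM. Scap had a ratio of 0.635 through Tg_24w_3, at 118 CPM. Acaca had a ratio of 0.742 through the same library, at 32 CPM, and Elovl6 one of 0.719, at 54.9 CPM. Without Tg_24w_3 the 24-week difference of Scap was 0.16 in place of 0.34.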

How the results depend on the processing

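The positive median of the sterol enzymes kept its direction under all alternatives run in all 5 comparisons: 0.13 to 0.47 for genotype, 0.02 to 0.15 at 15 weeks, 0.28 to 0.51 at 24 weeks, 0.14 to 0.37 between ages and 0.27 to 0.59 for the interaction. The median of the fatty acid enzymes at 24 weeks ran from -0.23 to 0.01. Genes past the threshold depended on tool and filter, and the cause was not tested. For genotype (0 in edgeR) they numbered 34 with DESeq2, 7 with voom, 135 without the filter, 3 without Tg_24w_3 and nTg_24w_1, and 0 to 5 with 1 library left out. At 15 weeks (0) they numbered 2 with DESeq2, 5 with voom and 65 without the filter. At 24 weeks (23) they numbered 218 with DESeq2, 238 with voom, 12 with each TPM pseudocount, 559 without the filter, 107 without both libraries, 4 against the 24-week nTg libraries, and 4 (without nTg_15w_2) to 36 (without Tg_24w_3) with 1 left out. Between ages (6) they numbered 289 with DESeq2, 102 with voom, 2 with each TPM pseudocount, 701 without the filter, 71 without both libraries, and 1 (without Tg_15w_1 or Tg_15w_3) to 14 (without Tg_24w_3) with 1 left out. For the interaction (0) they numbered 1 with DESeq2 and with voom, 17 without the filter, 4 without both libraries, and 0 to 1 with 1 left out.

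Members past the threshold at 24 weeks (0 in edgeR) numbered 1 with DESeq2, 1 with voom and 5 without the filter. Between ages they numbered 1 with DESeq2, 2 without the filter and 0 to 1 with 1 library left out. The median of all members was 0.15 with TPM plus 1 at 24 weeks, and for the interaction 0.18 and 0.17 with TPM plus 0.1 and 1. With TPM plus 0.1 the median of all genes moved to -0.088 at 24 weeks, -0.083 between ages and -0.103 for the interaction.

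Small differences turned in sign. For genotype, Srebf1 (-0.02) was 0.11 in the 24-week libraries and -0.13 to 0.14 with 1 left out, and Insig1 (0.11) was -0.05 to 0.26. At 15 weeks Scap (0) was 0.01 without the filter and -0.04 to 0.04 with 1 left out, and Insig1 (0.09) was -0.07 to 0.24. At 24 weeks, without both libraries, Srebf1 was -0.03 and Scd2 0.01, and Insig1 (0.13) was -0.03 to 0.28 with 1 left out. Between ages Insig1 (0.04) was -0.02 with voom, -0.06 with each TPM pseudocount and -0.11 to 0.12 with 1 left out, and Scd2 (0.03) was -0.07 with each TPM pseudocount and -0.08 to 0.1.

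The replicate block gave 1 gene past the threshold for genotype, 15 at 24 weeks and 1 for the interaction, and 0 for Scap at 15 weeks. Same-numbered Tg libraries had correlations of -0.106, 0.139 and -0.0523 between ages, against -0.292 to 0.273 for differently numbered ones. With so few libraries, and nTg not examined, these values cannot decide whether the numbers pair the samples. The interaction without nTg_15w_2 could not be fitted. With only the 250 bases before the start, 21 of 26 members held CCAAT. With 3 libraries a group and 1 nTg library at 15 weeks, small differences were not detectable, and Fdps, at 6 to 35 reads, is the least precise member.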
